A study of Mus musculus with 6 samples.

Results

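The VEGF and angiopoietin family, as taken here, comprises the VEGF ligand genes *Vegfa*, *Vegfb*, *Vegfc*, *Vegfd* and *Pgf*, the angiopoietin genes *Angpt1* and *Angpt2*, and the angiopoietin-like genes *Angptl1*, *Angptl2* and *Angptl4*. The genes were chosen by symbol, and all 10 were found among the 20327 gene symbols of the series. Of these 10 genes, 9 passed the filter on low counts, as did 9334 genes in all, and *Angptl1* did not.

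The values are gene counts from stromal cells of the colon of C57BL/6 mice with the *Il11-Egfp* genotype, aged 9 to 15 weeks, which were male according to the methods. Every mouse had drunk 1.5% dextran sulfate sodium (DSS), which injures the colonic epithelium and causes colitis, for 5 days, and cells were sorted on day 7. The fraction was negative for Ter119, CD45, CD31 and EpCAM and for DAPI, and was split by EGFP into EGFP-Positive and EGFP-Negative cells, called IL-11+ and IL-11- fibroblasts in the study, with n = 3 libraries in each group. Both groups carried the reporter and had received DSS, so the comparison is between sorted cells of treated mice, with no untreated mice. The reporter is a bacterial artificial chromosome transgene in which *Egfp* was placed in the second exon of *Il11*, so that EGFP marks transcription from the transgene and not IL-11 protein. The methods describe the sorted EGFP+ cells as less than fully pure, and EGFP- cells were defined only by markers that they lack. The comparison shows in which of these populations transcripts for regulators of blood and lymphatic vessels were more abundant.

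Libraries were made by 5′Tag-seq, which captures polyA RNA, amplifies the cDNA and reads tags from the 5′ side of transcripts. The number of tags was 1057170, 1078179 and 1169817 in IL-11- replicates 1, 2 and 3, and 1046538, 1022851 and 1049048 in IL-11+ replicates 1, 2 and 3. Levels are given as tags or as normalized CPM, that is tags scaled to a common library size by the TMM method. A floor of 3 tags in a library stood at 2.46 to 3.18 normalized CPM, and floors and counting intervals cover counting error only, because amplified tags are not independent molecules. A gene was called higher or lower where the adjusted p of edgeR's quasi-likelihood test was under 0.05 and the fold change over 2. Values of the 3 replicates of a group are listed in the order 1, 2, 3, and positive log2 fold changes mean higher values in IL-11+ fibroblasts. *Il11*, which checks the labels, gave 28, 51 and 89 tags across IL-11- replicates, against 1357, 732 and 2658 across IL-11+ replicates. The groups were widely separated, though tags of reporter transcripts may be among these *Il11* tags because the transgene keeps the 5′ part of *Il11*.

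VEGF ligands are secreted growth factors that bind receptor tyrosine kinases on endothelial cells. VEGFA, VEGFB and PlGF act on blood vessels through VEGFR1 and, for VEGFA, VEGFR2, whereas VEGFC and VEGFD drive growth of lymphatic vessels through VEGFR3. Angiopoietins bind the receptor TIE2, which ANGPT1 activates to stabilize vessels and which ANGPT2 often antagonizes, while angiopoietin-like proteins resemble angiopoietins in structure but do not bind TIE2. In the intestine, vessels are remodelled during colitis, and stromal cells are a source of these ligands.

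Among all 9334 tested genes, 321 (3.44%) were called higher and 595 (6.37%) lower in IL-11+ fibroblasts. The family was divided: *Angpt1* and *Angptl4* were called higher, *Angpt2* and *Vegfd* lower, and *Vegfa*, *Vegfb*, *Vegfc*, *Pgf* and *Angptl2* were not called. Every IL-11+ library exceeded every IL-11- library for 3 tested members, as for 14.5% of all tested genes, and lay below all of them for another 3, as for 16.7%. Tested members had a median log2 fold change of -0.40 (9 genes), or -0.46 over 10 genes with *Angptl1* at its bound against the floor, beside -0.01 over all tested genes. *Angpt2* passed the filter through its IL-11- libraries alone, so its place among the tested genes rests on the group in which it was high. This held for 296 of all tested genes, and 38 passed through IL-11+ libraries alone.

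**Figure D1:**
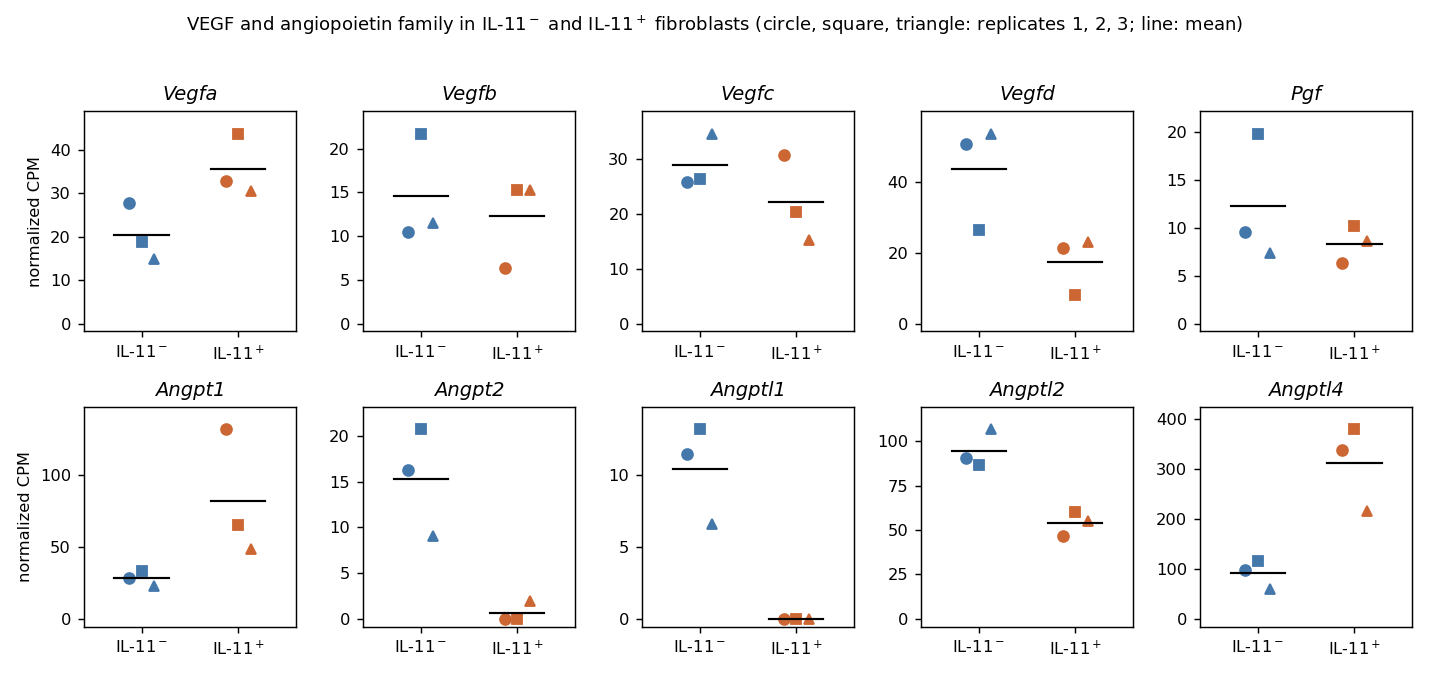
Normalized CPM (tags scaled to a common library size, vertical axes, each from 0) of the 10 family members in IL-11- and IL-11+ fibroblasts, with a circle, square and triangle for replicates 1, 2 and 3 and a line for the mean of n = 3. *Angpt1* and *Angptl4* lie higher in all 3 IL-11+ libraries, *Angpt2* and *Angptl1* lie at 0 to 1.91 normalized CPM there, and the groups overlap for *Vegfb*, *Vegfc* and *Pgf*.

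The populations also differed in markers of other cell types. In bulk libraries, fewer cells of a type and less RNA per cell cannot be told apart. The smooth muscle list was called lower in 9 of 9 tested genes (median log2 fold change -4.04), of which *Cnn1* reached 10 tags in IL-11- libraries alone. Its summed level was 2767, 3410 and 4261 normalized CPM in IL-11- and 115.5, 178.7 and 375.7 in IL-11+ replicates 1, 2 and 3, and *Myh11* was the most abundant gene. Without IL-11+ replicate 3, the IL-11+ library with the highest sum, the log2 fold change of *Myh11* moved from -4.55 to -5.63, and all 9 genes were still called. Of 9 tested pericyte genes, 6 were called lower (median -2.95), and *Kcnj8* and *Abcc9*, named after their values were seen, had log2 fold changes of 0.71 and 0.67 and were not called. *Ndufa4l2*, *Notch3* and *Cox4i2*, among the 6, passed the filter through IL-11- libraries alone, so the count and median rest in part on the filter. The summed pericyte level was 2725, 2354 and 2160 normalized CPM in IL-11- and 1079, 904.6 and 806.8 in IL-11+ replicates 1, 2 and 3. *Rgs5* made up most of it in IL-11- libraries, with 1951, 1700 and 1800 tags against 186, 174 and 206 tags in IL-11+ libraries. Genes of enteric glia (1 of 1 tested, *Gfap*) and of interstitial cells of Cajal (3 of 3, most abundant *Ano1*) were called lower as well, with summed levels of 49.0 to 59.1 and 167.7 to 271.2 normalized CPM in IL-11- libraries and 1.02 to 3.18 and 20.3 to 50.5 in IL-11+ libraries. *Gfap* and *Kit* passed the filter through IL-11- libraries alone, and *Etv1* lost its call without IL-11- replicate 1 (log2 fold change -0.91).

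Of 8 fibroblast genes, *Col3a1* and *Pdpn* were called higher and 6 were not called (median 0.55). *Pdgfra* had 661 to 742 tags in IL-11- and 688 to 768 in IL-11+ libraries. The summed level was 20920, 20750 and 23560 normalized CPM in IL-11- and 41070, 32860 and 29550 in IL-11+ replicates 1, 2 and 3. *Dcn* was the most abundant gene. For 5 of the 8, every IL-11+ library exceeded every IL-11- library, beside 14.5% of all tested genes. Without IL-11- replicate 1 neither *Col3a1* (0.85) nor *Pdpn* (0.96) was called, and without IL-11+ replicate 1 *Pdpn* (0.96) was not called. *Thy1* (0.88) gained a call without IL-11- replicate 3 (1.21) or IL-11+ replicate 2 (1.003), and *Lum* was lower in every IL-11+ library, with a log2 fold change of -0.64 that did not pass the fold-change threshold. Endothelial cells, in which the receptors of the family mainly act, were gated out by CD31. *Pecam1*, which encodes CD31, had 1 tag in IL-11- replicate 2 and 0 tags in the other 5 libraries, and *Tie1*, *Vwf*, *Egfl7* and *Kdr* had at most 2 tags in any library. Because CD31 was itself gated on, *Pecam1* says little about endothelial cells that escaped the gate. Other genes of the list were present in IL-11- libraries, with 31, 62 and 58 tags of *Esam* against 1, 2 and 7 in IL-11+ libraries, 6, 8 and 11 of *Plvap* against 0, 3 and 2, and 7, 2 and 1 of *Emcn* against 0 in each. Of the 14 blood endothelial genes, 12 were in the files and 4 were tested, of which *Erg* was called higher and *Esam* and *Tek* lower, *Esam* having passed the filter through IL-11- libraries alone. The summed level of this list was 136.5, 165.8 and 172.4 normalized CPM in IL-11- and 121.9, 101.5 and 91.5 in IL-11+ replicates 1, 2 and 3, with *Eng* the most abundant gene. *Cdh5* and *Cldn5* were not analysed here. Lymphatic endothelial, mesothelial, leukocyte and erythroid lists had no gene that passed the filter, with summed levels of at most 11.5, 17.2, 40.3 and 233.2 normalized CPM in any library. Their most abundant genes were *Prox1*, *Wt1*, *Cd68* and *Hbb-bs*, and hemoglobin tags came mostly from IL-11- replicates 1 and 3, with 34 and 141 *Hbb-bs* tags. In the epithelial list *Epcam* had at most 1 tag in a library, and 1 gene, *Lgals4*, was tested and called lower (summed level 26.4 to 56.7 normalized CPM in IL-11- and 9.54 to 21.9 in IL-11+ libraries). The *Lgals4* call was lost without IL-11- replicate 3 (log2 fold change -1.12), IL-11+ replicate 1 (-1.02) or IL-11+ replicate 2 (-1.16).

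*Vegfa*, which encodes the main inducer of blood vessel growth and of vascular permeability, gave 29, 20 and 18 tags across IL-11- replicates, against 31, 43 and 32 across IL-11+ replicates. The groups did not overlap, but the highest IL-11- library lay close to the lowest IL-11+ library. The mean was 20.4 ± 6.60 and 35.7 ± 7.01 normalized CPM (SD over n = 3 libraries), a log2 fold change of 0.81 (SE 0.292) that was not called (Benjamini-Hochberg adjusted p = 0.0706 by the edgeR quasi-likelihood test). Same-numbered libraries differed by 0.25, 1.21 and 1.05 on the log2 scale in replicates 1, 2 and 3, so the smallest difference was in replicate 1. Without IL-11- replicate 1, the log2 fold change was 1.09 and the gene was called (Benjamini-Hochberg adjusted p = 0.0352 by the edgeR quasi-likelihood test). Over all alternatives its adjusted p ranged from 0.0303 to 0.263. The lowest value came from the edgeR quasi-likelihood test paired by replicate number (log2 fold change 0.82). There, and with no filter on low counts (0.85), *Vegfa* passed the adjusted p but not the fold-change threshold.

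*Vegfd*, which encodes a ligand of VEGFR3 that acts on lymphatic vessels, gave 53, 28 and 65 tags across IL-11- replicates, against 20, 8 and 24 across IL-11+ replicates. Replicate 2 was the lowest in both groups, and the groups did not overlap, with 28 tags as the lowest IL-11- value and 24 as the highest IL-11+ value. Between same-numbered libraries the difference was -1.26, -1.70 and -1.22 on the log2 scale. *Vegfd* fell from 43.5 ± 14.8 to 17.4 ± 8.08 normalized CPM (SD over n = 3 libraries), a log2 fold change of -1.32 (Benjamini-Hochberg adjusted p = 0.0128 by the edgeR quasi-likelihood test, SE 0.346). The call was lost without IL-11- replicate 1 (log2 fold change -1.20, adjusted p = 0.0559), IL-11- replicate 3 (-1.14, 0.0587) or IL-11+ replicate 2 (-0.97, 0.0802), with Benjamini-Hochberg adjustment of the edgeR quasi-likelihood test. Over all alternatives that tested it, its adjusted p ranged from 0.000174 to 0.0802. In the same libraries 9 of 9 tested smooth muscle genes and 6 of 9 tested pericyte genes were called lower, and their part in the result was not tested.

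The paralog *Vegfc*, which encodes the other VEGFR3 ligand, gave 27, 28 and 42 tags across IL-11- replicates, against 29, 20 and 16 across IL-11+ replicates. Here the groups overlapped, since IL-11+ replicate 1 lay above 2 of the IL-11- libraries, and the log2 fold change was -0.40 (SE 0.302). *Vegfb*, whose product binds VEGFR1, gave 11, 23 and 14 tags across IL-11- replicates, against 6, 15 and 16 across IL-11+ replicates, with a log2 fold change of -0.23 (SE 0.415). *Pgf*, which encodes placental growth factor, another VEGFR1 ligand, gave 10, 21 and 9 tags across IL-11- replicates, against 6, 10 and 9 across IL-11+ replicates, with a log2 fold change of -0.52 (SE 0.452). For these 3 ligands the difference was within the spread between libraries, with Benjamini-Hochberg adjusted p of 0.444 to 0.793 by the edgeR quasi-likelihood test. *Vegfb* and *Pgf* had only 6 to 23 tags per library, and a missed threshold does not show that their levels were equal. Leaving out IL-11- replicate 2, the highest library for both, moved the log2 fold change to 0.17 for *Vegfb* and to 0.00 for *Pgf*.

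The receptors of these ligands were near the floor or not called. *Kdr* (VEGFR2), the main signalling receptor for VEGFA, gave 2, 1 and 1 tags across IL-11- replicates, against 0, 0 and 2 across IL-11+ replicates. *Flt1* (VEGFR1) gave 4, 5 and 14 tags across IL-11- replicates, against 4, 1 and 3 across IL-11+ replicates, and neither gene passed the filter. The third receptor gene, *Flt4* (VEGFR3), was not analysed here. Transcripts of the neuropilins, co-receptors for VEGF and receptors for class 3 semaphorins, were readily measured. *Nrp1* gave 357, 319 and 401 tags across IL-11- replicates, against 237, 270 and 273 across IL-11+ replicates. Its IL-11+ libraries were all below the IL-11- libraries, but the log2 fold change of -0.30 (SE 0.157) was not called (Benjamini-Hochberg adjusted p = 0.229 by the edgeR quasi-likelihood test). *Nrp2*, the co-receptor for VEGFC, gave 111, 108 and 82 tags across IL-11- replicates, against 79, 70 and 64 across IL-11+ replicates, with a log2 fold change of -0.35 (SE 0.206). Of these 2 tested receptor genes, edgeR's quasi-likelihood test and DESeq2 called 0, and 0 had an unadjusted p under 0.05. Those fits were not paired by replicate number. In the paired fit *Nrp1* had an unadjusted p of 0.0411 by the edgeR quasi-likelihood test, and neither gene was called.

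*Angpt1*, which encodes the TIE2 agonist, gave 30, 35 and 28 tags across IL-11- replicates, against 124, 64 and 51 across IL-11+ replicates. Every IL-11+ library exceeded every IL-11- library, and IL-11+ replicate 1 stood apart from the other IL-11+ libraries. *Angpt1* rose from 28.2 ± 5.01 to 81.7 ± 43.9 normalized CPM (SD over n = 3 libraries), with a log2 fold change of 1.53 (Benjamini-Hochberg adjusted p = 0.0018 by the edgeR quasi-likelihood test, SE 0.31). The difference between same-numbered libraries was 2.2, 0.98 and 1.08 on the log2 scale. Without IL-11+ replicate 1 the log2 fold change was 1.02, near the fold-change threshold, and the gene was still called (Benjamini-Hochberg adjusted p = 0.0157 by the edgeR quasi-likelihood test). Its adjusted p ranged from 3.85e-09 to 0.0157 over all alternatives. In the same libraries 2 of 8 fibroblast genes were called higher, and their part in the *Angpt1* difference was not tested.

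*Angpt2*, which encodes the context-dependent TIE2 antagonist, moved in the opposite direction, with 17, 22 and 11 tags across IL-11- replicates, against 0, 0 and 2 across IL-11+ replicates. The groups were far apart, and the IL-11+ libraries were all under the floor of 3 tags. Over the pooled libraries, 50 tags stood against 2, a ratio of 22.4 after scaling, with an exact 95% counting interval of 5.88 to 189.8. *Angpt2* was called lower (log2 fold change -4.28, SE 0.745, Benjamini-Hochberg adjusted p = 0.000472 by the edgeR quasi-likelihood test), in a range in which the fitted fold change depends on the prior count. Without IL-11+ replicate 3, the IL-11+ libraries held 0 tags, and the fitted value moved to -7.01. ANGPT2 is best known from endothelial cells, where it is stored and released. Among markers of other cell types, 9 of 9 tested smooth muscle genes and 6 of 9 tested pericyte genes were called lower as well. The tested blood endothelial genes were divided, with *Esam* and *Tek* lower, *Erg* higher (log2 fold change 1.64) and *Eng* not called (-0.11), and the part of these cells in the *Angpt2* difference was not tested.

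*Tek*, which encodes TIE2 itself, gave 33, 24 and 42 tags across IL-11- replicates, against 17, 7 and 5 across IL-11+ replicates. The groups did not overlap, and IL-11+ replicate 1 was the nearest to the IL-11- libraries. *Tek* fell from 29.5 ± 6.18 to 9.96 ± 7.07 normalized CPM (SD over n = 3 libraries), a log2 fold change of -1.58 (Benjamini-Hochberg adjusted p = 0.0085 by the edgeR quasi-likelihood test, SE 0.392). The call was lost without IL-11+ replicate 2 (log2 fold change -1.40, Benjamini-Hochberg adjusted p = 0.0529 by the edgeR quasi-likelihood test), and over the fits without a library the adjusted p ranged from 0.00117 to 0.0529. Without IL-11+ replicate 1 the log2 fold change was larger in size, at -2.30, and the gene was called. Of the 3 other tested blood endothelial genes, *Esam* was called lower like *Tek*, *Erg* was called higher and *Eng* was not called. Among tested genes, 9 of 9 for smooth muscle and 6 of 9 for pericytes were called lower. The part of these cells in the *Tek* difference was not tested. *Tie1*, the gene for the companion receptor of TIE2, had 2 tags in IL-11- replicate 2 and 1 tag in IL-11+ replicate 2, and *Ptprb*, which encodes the phosphatase that restrains TIE2, had at most 1 tag in any library. *Svep1*, whose product is a matrix protein that binds TIE1, gave 555, 507 and 1019 tags across IL-11- replicates, against 267, 346 and 651 across IL-11+ replicates. Replicate 3 was the highest in both groups, so the groups overlapped, although same-numbered libraries differed by -0.91, -0.44 and -0.43 on the log2 scale. The fitted log2 fold change of *Svep1* was -0.56 (SE 0.253), not called (Benjamini-Hochberg adjusted p = 0.165 by the edgeR quasi-likelihood test). With libraries paired by replicate number it was -0.587 (SE 0.142, Benjamini-Hochberg adjusted p = 0.00146 by the edgeR quasi-likelihood test). There *Svep1* passed the adjusted p but not the fold-change threshold.

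*Angptl4*, which encodes an inhibitor of lipoprotein lipase that also acts on vascular permeability, gave 103, 124 and 74 tags across IL-11- replicates, against 320, 374 and 226 across IL-11+ replicates. The groups did not overlap, and the replicates kept the same order in both, with replicate 2 the highest and replicate 3 the lowest. Same-numbered libraries therefore differed by nearly equal amounts, 1.79, 1.70 and 1.83 on the log2 scale. *Angptl4* rose from 92.0 ± 28.6 to 311.5 ± 85.5 normalized CPM (SD over n = 3 libraries), a log2 fold change of 1.76 (Benjamini-Hochberg adjusted p = 3.14e-05 by the edgeR quasi-likelihood test, SE 0.236). It was called in 6 of 6 fits without a library, with log2 fold changes of 1.53 to 1.98. As for *Angpt1*, the part of the 2 of 8 fibroblast genes called higher was not tested.

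*Angptl2*, whose product is a secreted protein linked to inflammation, gave 95, 92 and 130 tags across IL-11- replicates, against 44, 59 and 58 across IL-11+ replicates. The groups did not overlap, with means of 94.7 ± 10.6 and 53.9 ± 6.74 normalized CPM (SD over n = 3 libraries). The log2 fold change of -0.81 (SE 0.189) passed the adjusted p but not the fold-change threshold (Benjamini-Hochberg adjusted p = 0.00541 by the edgeR quasi-likelihood test), so the gene was not called. It stayed under the fold-change threshold in 6 of 6 fits without a library, at -0.89 to -0.71. *Angptl1*, which encodes a secreted protein described as antiangiogenic, gave 12, 14 and 8 tags across IL-11- replicates, against 0 in each IL-11+ library. With 10 tags or more in only 2 libraries it did not pass the filter, and against the floor of 3 tags per library its mean was at least 3.43-fold lower in IL-11+ fibroblasts. When all genes were tested without a filter, the only setting that tested it, *Angptl1* was called lower (Benjamini-Hochberg adjusted p = 1.53e-06 by the edgeR quasi-likelihood test). Here too the markers called lower (9 of 9 for smooth muscle and 6 of 9 for pericytes) stand beside the result, and their part in the *Angptl1* difference was not tested.

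Of the other genes listed for angiopoietins and angiopoietin-like proteins, 4 were in the files and 1 was tested. *Angptl7* gave 113, 28 and 51 tags across IL-11- replicates, against 5, 2 and 8 across IL-11+ replicates. The IL-11- libraries were spread widely, yet the lowest of them was above every IL-11+ library. Like *Angpt2*, it reached 10 tags in IL-11- libraries alone. *Angptl7* was called lower, with a log2 fold change of -3.51 (Benjamini-Hochberg adjusted p = 0.000116 by the edgeR quasi-likelihood test, SE 0.53). Without IL-11- replicate 1, its highest library, the value was -2.74 and the gene was still called. *Angptl6*, named after its values were seen, gave 6, 3 and 12 tags across IL-11- replicates, against 0 in each IL-11+ library. *Angpt4* and *Angptl8* had at most 4 and 3 tags in any library.

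**Figure D2:**
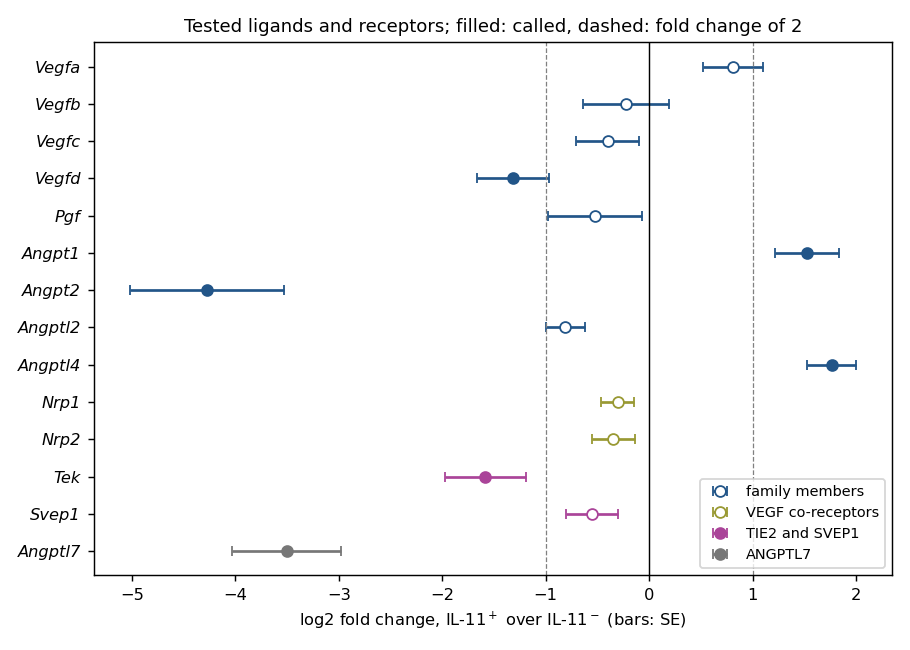
Log2 fold change (horizontal axis, IL-11+ over IL-11- fibroblasts, n = 3 libraries each) with its SE for the tested family members, the tested receptor genes, *Svep1* and *Angptl7*. Filled points were called and dashed lines mark a fold change of 2. *Angpt1* and *Angptl4* are called at 1.53 and 1.76, and *Angpt2*, *Angptl7*, *Tek* and *Vegfd* at -4.28 to -1.32.

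Other genes shape how much of a ligand is active. Of 14 genes for maturation, storage and inhibition of VEGF, 12 were tested, 2 were called lower and 10 were not called (median log2 fold change -0.40). The called genes encode semaphorins, some of which compete with VEGF at neuropilins. *Sema3c* gave 134, 134 and 174 tags across IL-11- replicates, against 35, 53 and 72 across IL-11+ replicates. Its groups were well separated, and it fell by 1.31 on the log2 scale (Benjamini-Hochberg adjusted p = 0.000163 by the edgeR quasi-likelihood test, SE 0.205). *Sema3a* gave 35, 48 and 47 tags across IL-11- replicates, against 16, 8 and 24 across IL-11+ replicates, a log2 fold change of -1.28 (Benjamini-Hochberg adjusted p = 0.00906 by the edgeR quasi-likelihood test, SE 0.318). Without IL-11- replicate 2 or IL-11+ replicate 2 its call was lost (log2 fold changes of -1.15 and -0.96). *Thbs2*, which encodes the antiangiogenic matrix protein thrombospondin 2 and is named after its values were seen, gave 148, 147 and 184 tags across IL-11- replicates, against 128, 52 and 44 across IL-11+ replicates. IL-11+ replicate 1 lay near the IL-11- libraries, and the log2 fold change was -0.91 (SE 0.289), which did not pass the fold-change threshold. With the replicate block it was -1.02 and was called (Benjamini-Hochberg adjusted p = 0.000113 by the edgeR quasi-likelihood test), and without IL-11+ replicate 1 it was -1.59 and was called.

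*Vegfa* and *Angptl4* are known targets of hypoxia-inducible factors (HIF), transcription factors that are stable when oxygen is low. In the list for hypoxia sensing, 8 genes were tested, 1 was called higher and 7 were not called (median log2 fold change 0.21). *Hif1a*, which encodes the oxygen-regulated subunit HIF-1α, gave 122, 178 and 188 tags across IL-11- replicates, against 384, 340 and 287 across IL-11+ replicates. With no overlap between the groups, it rose from 146.2 ± 26.6 to 342.0 ± 66.7 normalized CPM (SD over n = 3 libraries), a log2 fold change of 1.22 (Benjamini-Hochberg adjusted p = 0.00015 by the edgeR quasi-likelihood test, SE 0.19). Of 16 other HIF target genes, 13 were tested, 1 was called higher and 12 were not called (median 0.47). For 8 of the 13, every IL-11+ library exceeded every IL-11- library, beside 14.5% of all tested genes. The called gene was *Pgk1*, for the glycolytic enzyme phosphoglycerate kinase, with 136, 183 and 199 tags across IL-11- replicates, against 408, 301 and 268 across IL-11+ replicates. Its log2 fold change was 1.09 (SE 0.199), close to the threshold, and it fell under it without IL-11- replicate 1 (0.98) or IL-11+ replicate 1 (0.86). Calls also moved for 3 other genes when a library was left out. *Adm* (log2 fold change 0.87) was called higher without IL-11- replicate 3 or IL-11+ replicate 2 or 3 (1.01 to 1.02). *Epas1* (0.94) was called higher without IL-11+ replicate 3 (1.28). *Bnip3* was not near the thresholds in the unpaired fit (-0.755, Benjamini-Hochberg adjusted p = 0.244 by the edgeR quasi-likelihood test). In the paired fit it passed the adjusted p but not the fold-change threshold (-0.744, Benjamini-Hochberg adjusted p = 0.0181 by the edgeR quasi-likelihood test). Unpaired, *Bnip3* was called lower without IL-11- replicate 3 (-1.15) or IL-11+ replicate 1 (-1.37). These 3 genes are named after their values were seen. The regulation of HIF is mostly at the protein level, which tag counts do not measure.

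*Angptl4* is also a target of the nuclear receptors PPAR and of the glucocorticoid receptor. Of 10 genes for these receptors and their other targets, 8 were tested, 1 was called lower and 7 were not called (median -0.001). Opposite to *Angptl4*, the called gene was lower, the glucocorticoid-induced *Tsc22d3*, which gave 169, 106 and 46 tags across IL-11- replicates, against 45, 31 and 10 across IL-11+ replicates. Replicate 1 was the highest and replicate 3 the lowest in both groups. After scaling the groups overlapped, with 37.8 normalized CPM as the lowest IL-11- value and 47.7 as the highest IL-11+ value, although same-numbered libraries differed by -1.76, -1.67 and -1.99 on the log2 scale. *Tsc22d3* had a fitted log2 fold change of -1.76 (Benjamini-Hochberg adjusted p = 0.00916 by the edgeR quasi-likelihood test, SE 0.439), and its call was lost in DESeq2 and without IL-11- replicate 1 (-1.22). Other targets, named after their values were seen, went both ways without a call. *Plin2*, *Cpt1a* and *Acadl* had log2 fold changes of 0.458, 0.545 and 0.499, and *Fkbp5* and *Per1* of -0.133 and -0.226. *Pdk4*, which did not pass the filter, gave 26, 16 and 5 tags across IL-11- replicates, against 3, 5 and 3 across IL-11+ replicates. Lipoprotein lipase, the enzyme that ANGPTL4 inhibits, is encoded by *Lpl*, which gave 301, 269 and 247 tags across IL-11- replicates, against 189, 308 and 254 across IL-11+ replicates. The groups overlapped, and *Lpl* was not called (log2 fold change 0.02, SE 0.19). Of the 2 tested genes of the lipase system, edgeR's quasi-likelihood test and DESeq2 called 0, and 0 had an unadjusted p under 0.05.

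The position of a gene decides which tags could be taken for its own. In the annotation (GRCm38), *Angptl4* (chr17:33773750-33781830, minus strand) and *Angpt1* (chr15:42424723-42676977, minus strand) overlapped no other gene of the count files. *Vegfa* lies on the same chromosome as *Angptl4* (chr17:46016993-46032369, minus strand), and *Vegfd* lies on the X chromosome (chrX:164373378-164402650, plus strand). The 3 members *Angpt2* (chr8:18690263-18741562, minus strand), *Angptl1* (chr1:156838562-156861078, plus strand) and *Angptl2* (chr2:33216069-33247717, plus strand) each lie within another gene on the opposite strand. These hosts are *Mcph1*, *Ralgps2* and *Ralgps1*, and the authors counted tags in 1 orientation. The host genes had few tags, with 2 to 11 for *Mcph1*, 0 to 4 for *Ralgps2* and 1 to 4 for *Ralgps1* in a library. No 50-nt window in the first 300 nt of the annotated transcripts of any member occurred in a transcript of another gene. Only exact matches were searched, and the authors mapped tags to RefSeq transcripts, whose starts can differ from those of this annotation. The search therefore does not show that every tag could be told from those of paralogs.

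Promoter windows of 300 bases, from 250 before to 50 after an annotated start (RefSeq, GRCm38.p6), were found for 7 of the 10 members, 9 windows in all, and were not found for *Angpt1*, *Angpt2* and *Angptl4*. The core of the HIF response element, ACGTG, was searched on both strands and occurred in 1 of the 9 windows. That window is for a second start of *Vegfa* (chr17:46025114-46025413, minus strand) and lies wholly inside the annotated gene. This motif occurred in 19.6% of 32851 windows of all genes and in 26.1% of the 9260 windows of tested genes. The AP-1 motif TGANTCA, where N is any base, was found in 0 of the 9 windows, in 7.81% of all windows and in 5.01% of those of tested genes. Neither motif contains the other, and a missing match says only that these letters are absent from the window. Stretches around the RefSeq start are shown for *Vegfd*, the only called member with a window, and for *Angptl1*, which had 0 tags in IL-11+ fibroblasts. They run from 150 bases before the start to 30 after it, with the bases transcribed in RefSeq, from which 5′ tags can start, in capitals. Both genes begin further upstream in the GRCm38 annotation used for the positions, so that the bases in lower case lie mostly (*Vegfd*) or wholly (*Angptl1*) inside the annotated gene. *Vegfd* is at chrX:164373372-164373551 and *Angptl1* at chr1:156838873-156839052, both on the plus strand.
Vegfd: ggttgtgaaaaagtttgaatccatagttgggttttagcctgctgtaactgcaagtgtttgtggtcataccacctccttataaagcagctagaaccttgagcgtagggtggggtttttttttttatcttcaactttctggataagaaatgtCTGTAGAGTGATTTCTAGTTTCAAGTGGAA
Angptl1: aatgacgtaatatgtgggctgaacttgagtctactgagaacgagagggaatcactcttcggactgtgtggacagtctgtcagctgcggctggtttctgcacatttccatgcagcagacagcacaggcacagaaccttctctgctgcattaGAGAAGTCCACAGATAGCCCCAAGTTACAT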

How the data were processed

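Tag counts of 6 libraries from sorted colon cells were analyzed (3 IL-11+ and 3 IL-11-), grouped by the EGFP status in the labels. The deposited counts are whole tags per gene symbol, without normalization. For these, the authors trimmed reads with Cutadapt 1.18 and mapped them with Bowtie2 2.2.5 to the mm10 RefSeq transcripts, allowing 1 orientation. How tags with several matching genes were counted is not given in the sources used here.

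Genes that reached 10 tags in 3 or more of the 6 libraries entered the test in R 4.3.3 with edgeR 4.0.16 (TMM scaling, quasi-likelihood test, Benjamini-Hochberg adjustment over all 9334 tested genes). The thresholds are those of the study's methods, which used R 3.5.1, TCC and edgeR. Taken literally, the methods remove genes at or above 10 tags as low. This was taken here in the reverse sense, as a minimum, and no number of libraries is stated there. Positions and transcripts came from GENCODE mouse release M21 and promoters from RefSeq.

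Members, pathway lists and marker lists were chosen with earlier results of these data known. Some listed genes are not reported here and were left out of the counts, medians and sums of their lists. Named were all members and receptors, and from other lists called genes (at most 4 in each direction) or the most abundant. Other listed genes that were not called, such as *Thbs2*, *Thy1*, *Lum*, *Pdgfra*, *Plvap* and *Emcn*, were named after their values were seen, and not every gene with a similar value is named. Alternatives were RLE scaling, library totals only, iterative TMM in 3 rounds, DESeq2 1.42.0, no filter, 10 tags in all 6 libraries, the replicate block, adjusted p alone, and each library left out in turn.

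Both groups carry replicate numbers 1 to 3 in the labels, and the methods name 3 mice. Over 5063 genes that averaged 30 tags or more, deviations of same-numbered libraries from the group means correlated across genes with r of 0.23, 0.185 and 0.264, so the numbers were taken to pair the libraries. Replicates differed beyond counting noise (chi-square per degree of freedom 2.51 to 5.72).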

Additional observations from a re-analysis of the deposited data

How the results depend on the processing

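The replicate block, a paired fit by replicate number, called 337 genes higher and 648 lower, against 321 and 595 without it. Among the genes named, it changed no call other than that of *Thbs2*. Scaling by RLE, by library totals or by iterative TMM, and DESeq2, left the 2 higher and 2 lower calls among members as they were. The adjusted p alone, with no fold-change threshold, gave 638 higher genes in all. The filter of 10 tags in all 6 libraries gave 256 lower genes in all and 0 lower members in edgeR, because *Angpt2* and *Vegfd*, each with a library under 10 tags, were then not tested. DESeq2 called 2 lower members on the wider filter. With each library left out in turn, 1 to 2 members were called lower and 2 to 3 higher; *Vegfd* lost its call in 3 of these fits and *Vegfa* gained one in 1. Log2 fold changes of *Angpt1*, *Angpt2* and *Angptl4* kept their direction and call in every alternative that tested them. Of the 9 tested members, *Vegfb* and *Pgf* were not called in any alternative. When libraries were left out, log2 fold changes of *Vegfb* lay on both sides of 0, and those of *Pgf* ran from -0.799 to 0.004. *Angptl1* was kept out of the test by its low counts, and *Angpt2*, *Vegfb* and *Pgf* also had at most 23 tags in any library.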
